A study of Mus musculus with 123 samples.

Results

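The megalin-cubilin endocytic receptor is described here through 5 genes: Lrp2 (megalin), Cubn (cubilin), Amn (amnionless), Dab2 and Lrpap1. They were taken by symbol from the 29022 genes of a table of unique molecular identifiers (UMIs), in which each captured transcript is counted once. Lrp2 was selected on its measured values, its higher UMI counts in Oct4-KO than in Ctrl early inner cell masses (ICMs), so that comparison is given as values, without a test, for all 5 genes. The other 4 genes were chosen as the known partners of megalin, with earlier results of these data known. All 5 were detected often enough to be tested.

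The study sequenced single mouse embryos, 1 library each, to ask what is lost when the pluripotency factors Oct4 (gene Pou5f1) or Sox2 are missing. The embryos fell into 16 groups, all labelled B6C3F1. Morulae were collected at E2.75, early ICMs at E3.75 and late ICMs at E4.5. The ICMs were freed from the trophectoderm by immunosurgery, which destroys the outer cells with antibody and complement, and their embryos had been cultured with 1 µM of the MEK inhibitor PD0325901 (MEKi), which holds back primitive endoderm.

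Mothers of Ctrl and KO embryos carried flox/flox alleles of Pou5f1 or Sox2 and Zp3-Cre, a Cre driven in the growing oocyte, so the egg lacked the gene in both. Fathers were heterozygous for a KO allele that carries a PGK-driven reporter, mKO2 at Pou5f1 or EGFP at Sox2. Embryos that inherited the reporter were maternal-zygotic KO (48 embryos in 6 groups of 8). Embryos without it kept the father's intact allele and served as Ctrl (48 embryos in 6 groups of 8). They are therefore themselves maternal KO. MWT embryos (27 in 4 groups) had mothers with the intact gene: 7 Oct4 MWT morulae, 5 early ICMs and 8 late ICMs, and 7 Sox2 MWT early ICMs. For the Oct4 MWT ICMs the titles name the early and late ICM, whereas their source names give an earlier stage. The stage in the title was used, and the embryonic day of these 2 groups is uncertain. The records of the Oct4 MWT early ICMs also list no MEKi, so their treatment is uncertain too.

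Megalin is a very large receptor of the low density lipoprotein (LDL) receptor family that takes up lipoproteins, vitamin carriers and other proteins at the surface of polarized epithelia. Cubilin has no membrane anchor of its own, and amnionless carries it to the surface and holds it there, where megalin assists its uptake. Dab2 is the clathrin adaptor that binds the receptors' tails, and Lrpap1 encodes the receptor-associated protein, a chaperone that keeps newly made receptors from binding ligands in the endoplasmic reticulum. In the early mouse embryo this machinery is known from the trophectoderm and from the endoderm that lines the yolk sac.

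Between 525755 and 1344035 UMIs were counted per embryo, and counts are given as CPM, that is, scaled to a library of 1000000 UMIs, so that 1 CPM is close to 1 UMI in an embryo. Labels were checked on the deleted genes. Pou5f1 ranged from 13.4 to 93.6 CPM in the Oct4 Ctrl embryos and from 0 to 4.73 CPM in the Oct4-KO embryos, with 3, 7 and 1 UMIs in the KO morulae, early ICMs and late ICMs. Sox2 transcripts were lower but still present in Sox2-KO embryos, at 7.74 to 36.4 CPM in the early ICMs against 72.6 to 194 CPM in their Ctrl. In the Oct4 MWT embryos Sox2 ranged from 2.35 to 31.5 CPM in morulae, 139 to 297 CPM in early and 215 to 673 CPM in late ICMs. Every MWT ICM thus lay above every MWT morula, while early and late ICMs overlapped. Epiblast markers were well detected in Ctrl ICMs, at a summed 3201 CPM (12 genes) in the Oct4 Ctrl early ICMs. In each library an ICM was 1 sample, so fewer cells of a type and less RNA per cell cannot be told apart.

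In the mm10 annotation of the table, Lrp2 lies on chromosome 2 (69424340 to 69586065, minus strand) and Cubn on the same chromosome and strand (13276338 to 13491813). Amn lies on chromosome 12 (111271095 to 111276426, plus strand), Dab2 on chromosome 15 (6299788 to 6440712, plus strand) and Lrpap1 on chromosome 5 (35091501 to 35105766, minus strand). The transcript Gm13270 overlaps Cubn on the other strand but had 2 UMIs over all embryos. Dab2 overlaps the antisense gene Gm16311 and the pseudogene Gm18888, which were not in the table. Whether counting used the strand is not stated, so reads of these pairs may be shared.

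The windows before the transcription starts of the 2 receptor genes are shown because Lrp2 and Cubn moved in opposite directions between morula and ICM. Both come from RefSeq on GRCm38.p6 and cover bases 250 to 51 before the start, 5′ to 3′ on the gene's strand, with each CG in capitals. The Lrp2 window is chr2:69586080-69586279 and the Cubn window chr2:13491927-13492126, both on the minus strand.
Lrp2: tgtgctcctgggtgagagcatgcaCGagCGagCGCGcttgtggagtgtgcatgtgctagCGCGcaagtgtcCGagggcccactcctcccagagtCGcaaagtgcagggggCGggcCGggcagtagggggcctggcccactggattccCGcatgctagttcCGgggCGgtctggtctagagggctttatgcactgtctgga
Cubn: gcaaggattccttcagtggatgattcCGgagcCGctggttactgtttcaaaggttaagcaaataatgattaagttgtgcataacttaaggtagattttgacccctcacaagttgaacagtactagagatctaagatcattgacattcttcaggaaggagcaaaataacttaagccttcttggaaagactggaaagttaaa
The Lrp2 window had 65.0% G or C and 13 CG, the Cubn window 38.5% and 2, against medians of 51.5% and 4 over 32851 RefSeq promoters. Lrpap1 (61.5%, 12 CG) and Amn (57.5%, 6 CG) stood with Lrp2 above the median. Dab2 has 2 RefSeq starts, one with 35.0% and 1 CG and the other with 61.0% and 15 CG.

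A set of 5 words was searched on both strands in the 250 bases before each of the 6 starts of the 5 genes. The TEAD word GGAATG (12.6% of all promoters), the GATA word AGATAA (9.99%), the OCT word ATGCAAAT (1.60%) and the SOX word AACAATG (3.29%) were not among these letters at any of the 6. The TFAP2 word GCCNNNGGC, found in 13.7% of all promoters, was present at 2 of the 6, Lrp2 and Dab2, the pair of genes that moved together below. Both sites are shown with the word in capitals, at chr2:69586030-69586057 (minus strand, 18 bases before the RefSeq start and inside the gene as the table places it) and chr15:6386535-6386564 (plus strand, 203 bases before the start). A match is a description of the sequence only.
Lrp2 site: aaaacgggatGCCTCAGGCgccgggacc
Dab2 site: accctttctgGCCCAAGGCagtgtggggct

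On average Lrp2 was abundant in morulae, low in Ctrl ICMs and high in Oct4-KO ICMs. Its mean was 281 ± 121 CPM (SD, n = 8) in Oct4-KO late ICMs, followed by Sox2-KO morulae (258 ± 103), Sox2 Ctrl morulae (219 ± 81.6) and Oct4-KO early ICMs (216 ± 122). Oct4 MWT, Ctrl and KO morulae came next at 139 ± 124, 126 ± 57.9 and 89.9 ± 43.1 CPM. The Sox2 MWT and Sox2-KO early ICMs held 78.7 ± 59.7 and 62.7 ± 33.1 CPM. Of the 15 steps between neighbours in this order, the one below the Sox2-KO early ICMs, to the Oct4 Ctrl late ICMs (26.1 ± 17.7), was the single step larger than the spread of both neighbours. The remaining ICM groups lay between 11.997 ± 8.36 (Sox2 Ctrl early) and 25.8 ± 42.9 CPM (Oct4 MWT early, n = 5), and their neighbours did not differ beyond their spread.

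**Figure D1:**
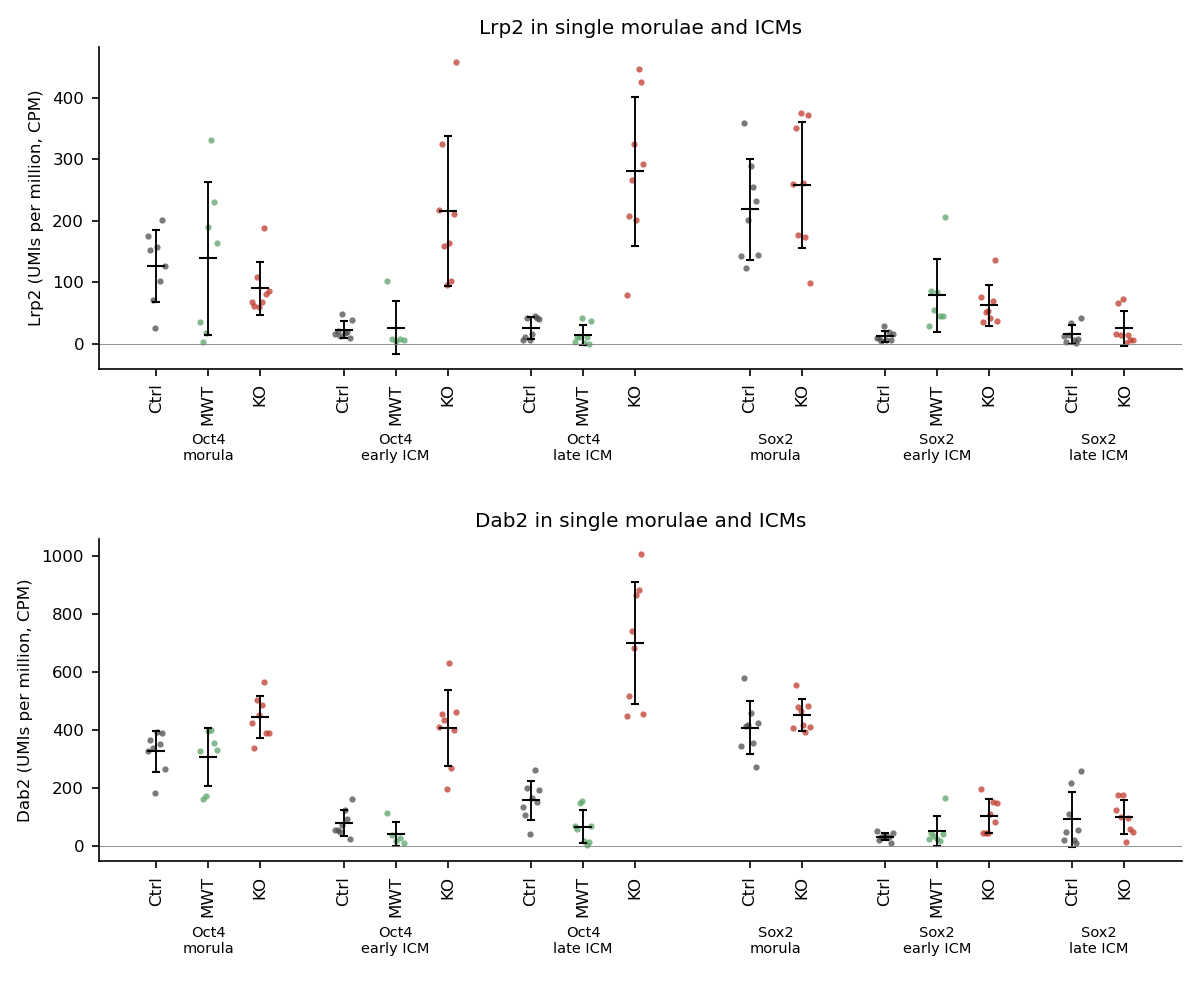
Lrp2 and Dab2 in single embryos (CPM, linear axis) for the 16 groups, ordered by line and stage. Points are single embryos and bars are the mean ± SD. The means of Lrp2 and Dab2 are high in morulae and lower in Ctrl ICMs, although single morulae reach down to 2.35 CPM of Lrp2 (Oct4 MWT morula 3), and every Oct4-KO ICM lies above every Oct4 Ctrl ICM of its stage.

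In Oct4-KO early ICMs, the comparison that chose Lrp2, Lrp2 ranged from 94.7 to 459 CPM with a median of 188, against 9.07 to 48.6 CPM with a median of 18.5 in Ctrl. These groups did not overlap, as the choice of Lrp2 would make likely, and the log2 fold change was 3.31 ± 0.41 (SE). A gene was called when its adjusted p was under 0.05 and its log2 fold change was 1 or more in size. Over all genes tested, 10.9% were called in this comparison.

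Dab2, the adaptor, had the same pattern in these embryos. It lay between 195 and 631 CPM (median 421) in the 8 Oct4-KO early ICMs and between 23.8 and 161 CPM (median 62.0) in the 8 Ctrl, again without overlap, with a log2 fold change of 2.45 ± 0.35. Lrpap1, the chaperone, went from a median of 589 CPM in Ctrl (478 to 753) to 739 CPM in KO (490 to 939), with overlapping groups and a log2 fold change of 0.35 ± 0.15. Cubn went the other way: 2.30 to 29.5 CPM (median 7.55) in Ctrl and 1.11 to 11.4 CPM (median 3.60) in KO, a log2 fold change of −1.33 ± 0.55 with overlap. Amn gave 14 UMIs in each group, which is too few to show a difference of any but a large size: the ratio of KO to Ctrl was 0.979, with a 95% Poisson interval of 0.433 to 2.22 that covers counting error only.

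In Oct4-KO late ICMs, whose embryos played no part in the choice, 3 of the 5 genes were called higher: Lrp2, Dab2 and Lrpap1. Among all genes tested, 18.1% were called in this comparison and 9.25% were called higher. The receptor partners Cubn and Amn were not called.

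Lrp2 lay between 79.6 and 446 CPM (median 279.8) in the 8 Oct4-KO late ICMs and between 5.57 and 45.6 CPM (median 28.1) in the 8 Ctrl. Every KO embryo was above every Ctrl embryo. The log2 fold change was 3.59 ± 0.42 (edgeR adjusted p = 2.19e-11), and the sums were 1705 against 131 UMIs. Dab2 was likewise separated, at 446 to 1005 CPM (median 711) against 39.0 to 261 CPM (median 158), with a log2 fold change of 2.29 ± 0.34 (adjusted p = 3.06e-08). Lrpap1 ranged from 256 to 696 CPM (median 474) in KO and from 162 to 339.9 CPM (median 215) in Ctrl. Its groups overlapped, but all 8 KO embryos were above the Ctrl median, and the log2 fold change of 1.16 ± 0.15 passed the test (adjusted p = 8.37e-10).

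Cubn was similar in both groups of late ICMs, at 1.16 to 23.4 CPM (median 5.37) in KO and 0 to 28.4 CPM (median 6.69) in Ctrl. The log2 fold change was −0.14 ± 0.55 (adjusted p = 0.884), with a 95% interval from −1.23 to 0.95. Amn had a log2 fold change of −1.41 ± 0.77 (adjusted p = 0.158). Of its 38 UMIs in the 8 Ctrl embryos, 32 came from embryo 1-9, and without it the log2 fold change was 0.91. Embryo 1-9 also had the largest summed primitive endoderm markers of its group, 3736 CPM against 794 to 2356 CPM in the other 7 (18 genes), and the part of these cells in the Amn values was not tested.

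The late ICM numbers begin with 1 or 2, a set that the labels do not explain. Within set 1 the log2 fold changes of Lrp2, Dab2 and Lrpap1 in Oct4-KO late ICMs were 3.89, 2.31 and 1.34, and within set 2 they were 3.18, 2.16 and 0.91. In set 2 Lrpap1 therefore fell below the fold minimum (adjusted p = 0.00132).

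**Figure D2:**
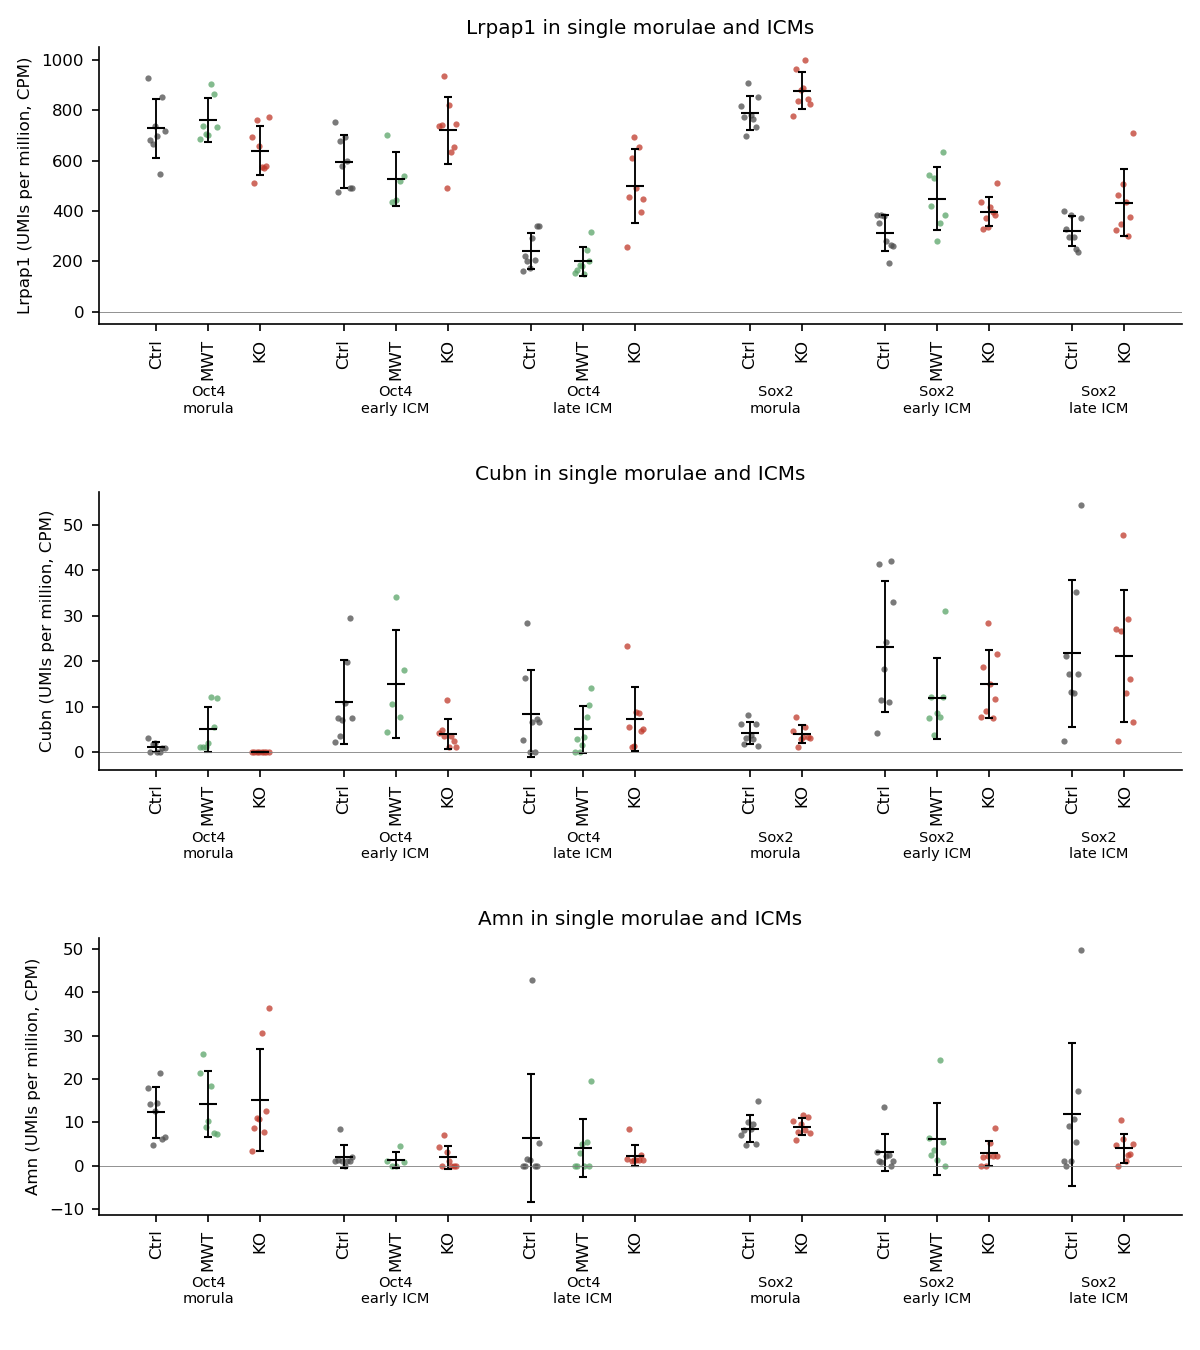
Cubn, Amn and Lrpap1 in single embryos (CPM, linear axis) for the same 16 groups. Points are single embryos and bars the mean ± SD. Cubn is at 0 in all 8 Oct4-KO morulae. Amn is low in most ICMs, with 42.9 CPM in 1 Oct4 Ctrl late ICM and 49.7 CPM in 1 Sox2 Ctrl late ICM. Lrpap1 stays above 148 CPM in every group.

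In Sox2-KO early ICMs 2 of the 5 genes were called, Lrp2 and Dab2, both higher, where 3.27% of all genes tested were called and 1.57% were called higher. Lrp2 lay between 35.3 and 136 CPM (median 52.8) in KO and between 3.80 and 28.1 CPM (median 9.03) in Ctrl, so that the groups did not overlap. The log2 fold change was 2.45 ± 0.46 (adjusted p = 7.98e-05). Against MWT in place of Ctrl embryos neither gene was called, as given below with the MWT values.

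Dab2 ranged from 43.2 to 195 CPM (median 96.4) in Sox2-KO and from 8.85 to 49.8 CPM (median 31.7) in Ctrl early ICMs. The groups overlapped at their edges, all 8 KO embryos were above the Ctrl median, and the log2 fold change was 1.79 ± 0.37 (adjusted p = 4.78e-04). Lrpap1 gave 327 to 510 CPM (median 389) against 193 to 384 CPM (median 317), a log2 fold change of 0.41 ± 0.15 that did not pass (adjusted p = 0.0747). Cubn had a log2 fold change of −0.56 ± 0.44 (adjusted p = 0.522), with 7.52 to 28.5 CPM in KO and 4.15 to 42.0 CPM in Ctrl. Amn, with 22 against 24 UMIs, had a 95% interval of its log2 fold change from −1.51 to 1.43.

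By the late ICM stage none of the 5 genes was called in Sox2-KO embryos, where edgeR called 6.95% of all genes tested. Amn and Lrpap1 were the 2 genes with an unadjusted p under 0.05, and DESeq2 called 0. Lrp2 reached 73.4 CPM in 1 Sox2-KO embryo but had a median of 13.7 CPM (lowest 2.02), against 1.36 to 42.6 CPM (median 10.3) in Ctrl. Its log2 fold change was 0.80 ± 0.49 (adjusted p = 0.310), with a 95% interval from −0.17 to 1.76. Within set 1 it was 1.43, with 42.5 ± 31.7 CPM in 4 KO and 15.9 ± 12.8 CPM in 4 Ctrl embryos. Within set 2 it was −0.85, with 7.21 ± 4.72 and 14.2 ± 19.1 CPM, so the direction of Lrp2 was not the same in the sets.

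The other genes in Sox2-KO late ICMs were close to their Ctrl or varied widely between embryos. Dab2 gave 13.1 to 176 CPM (median 96.6) against 9.49 to 256 CPM (median 50.5), a log2 fold change of 0.19 (adjusted p = 0.789). Lrpap1 gave 303 to 711 CPM (median 405) against 238 to 399 CPM (median 315). Its log2 fold change of 0.53 ± 0.15 had an adjusted p of 0.00753 and stayed under the fold minimum. Cubn was at 21.2 ± 14.6 and 21.8 ± 16.1 CPM (adjusted p = 0.945).

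Amn had a log2 fold change of −1.41 ± 0.64 in Sox2-KO late ICMs (adjusted p = 0.133; −0.58 without Ctrl embryo 2-6), from 0 to 10.5 CPM in KO and from 0 to 49.7 CPM in Ctrl. Within set 2 it was −2.78 (adjusted p = 0.0336) and within set 1 0.92. The 2 Ctrl embryos with the most Amn, 2-6 (49.7 CPM) and 2-4 (17.2 CPM), were also those with the highest primitive endoderm marker sums, 4298 and 3006 CPM, against 929 to 2068 CPM in the other 6. In Sox2-KO embryo 2-6 a marker sum of 3056 CPM stood beside 2.45 CPM of Amn. The part of primitive endoderm in the Amn difference was not tested.

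The Oct4 and Sox2 effects were compared directly with an interaction term. In late ICMs the change of Lrp2 was larger after loss of Oct4 than after loss of Sox2 by 2.79 ± 0.66 on the log2 scale (adjusted p = 0.00233), and that of Dab2 by 2.10 ± 0.48 (adjusted p = 0.00152). These 2 of 5 genes were called, against 6.30% of all genes tested. For Lrpap1 the difference was 0.62 ± 0.21 (adjusted p = 0.0477), under the fold minimum, and for Cubn it was −0.22 (adjusted p = 0.916). In early ICMs, where the rule took part, the difference was 0.86 ± 0.64 for Lrp2 and 0.66 ± 0.50 for Dab2, given without a test. In morulae the interaction test called none of the 5 (0.356% of all genes tested), with an unadjusted p under 0.05 for Cubn alone (−3.21 ± 1.40, adjusted p = 0.461), whose Oct4-KO morulae held 0 UMIs.

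**Figure D3:**
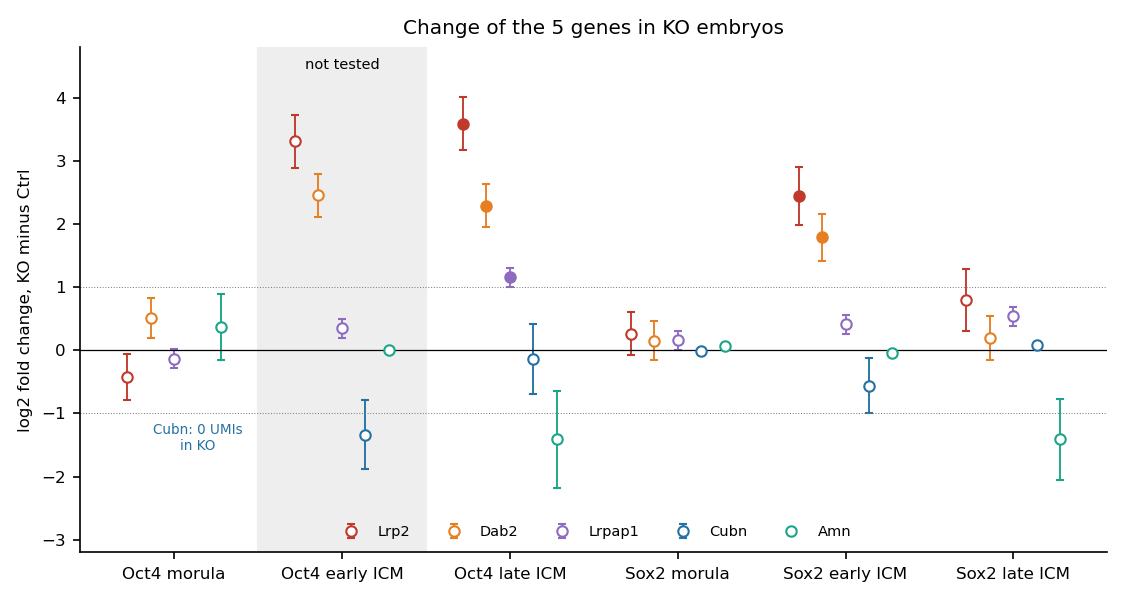
Log2 fold change of KO over Ctrl for the 5 genes in 6 comparisons, with the SE as error bars (not drawn where the fold change is under 0.1 in size). Filled points were called and open points were not, and the comparison on the grey band was not tested. Dotted lines mark a log2 fold change of 1 and −1, and Cubn in Oct4 morulae is not drawn because the KO embryos hold 0 UMIs. Lrp2 and Dab2 are called in Oct4 late and Sox2 early ICMs and Lrpap1 in Oct4 late ICMs.

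In morulae none of the 5 genes was called in either line. edgeR called 0.804% of all genes tested in Oct4-KO morulae and 0.00712% in Sox2-KO morulae. In Oct4 morulae Cubn alone had an unadjusted p under 0.05, in Sox2 morulae 0 genes had, and DESeq2 called 0 in both. Lrp2 gave 59.5 to 189 CPM (median 74.6) in Oct4-KO and 25.2 to 201 CPM (median 139) in Ctrl morulae, a log2 fold change of −0.42 (adjusted p = 0.732). The other 2 genes that were called in Oct4-KO late ICMs did not pass here either: Dab2 had a log2 fold change of 0.50 (adjusted p = 0.575) and Lrpap1 one of −0.13. In Sox2 morulae Lrp2 was at 258 ± 103 CPM in KO and 219 ± 81.6 CPM in Ctrl.

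Cubn was barely detected in Oct4 morulae. All 8 Oct4-KO morulae were at 0, the 8 Ctrl morulae held 9 UMIs together and the 7 MWT morulae 36 UMIs. With a floor of 3 UMIs over the group, Cubn in KO was at least 3.08-fold lower than in Ctrl, but this did not pass the test (adjusted p = 0.246). Against MWT morulae, a comparison added after the values were seen, it was at least 14.3-fold lower and was called (adjusted p = 0.00136). In the Sox2 line, Cubn was at 4.22 ± 2.37 CPM in Ctrl and 3.99 ± 1.99 CPM in KO morulae.

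Whether the mother's gene mattered was asked with the MWT embryos, which share their Ctrl with the comparisons above. The mothers differed in cross as well, so cross and maternal gene cannot be told apart. In the Sox2 line Pou5f1 was at 116 CPM in MWT early, 58.5 CPM in Ctrl early and 115 CPM in Ctrl late ICMs. Sox2 was at 109 CPM in both early groups and 183 CPM in Ctrl late ICMs. Whether MWT and Ctrl embryos differed in stage was not tested. In Sox2 early ICMs Lrp2 was the 1 gene of 5 called, where 2.58% of all genes tested were called. In the 7 Sox2 MWT embryos it ranged from 29.2 to 206 CPM (median 55.7), and every one was above the highest Sox2 Ctrl embryo (28.1 CPM). The log2 fold change of MWT over Ctrl was 2.71 ± 0.56 (adjusted p = 6.36e-04). MWT embryo 15, the highest, also had the highest trophectoderm marker sum of the 7, 2578 CPM against 1251 to 2250 CPM, and without it the log2 fold change was 2.27 (adjusted p = 0.00904).

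The rest of the set differed less between Sox2 MWT and Ctrl early ICMs. Lrpap1 was at 449.8 ± 124 against 312 ± 72.1 CPM, a log2 fold change of 0.54 ± 0.16 (adjusted p = 0.0199) under the fold minimum. Dab2 had a log2 fold change of 0.67 (adjusted p = 0.426), which was −0.025 without embryo 15, and Cubn one of −0.95 (adjusted p = 0.254). Amn had 38 UMIs in MWT, 22 of them in embryo 10, against 24 UMIs in Ctrl, and was not called. Set directly against MWT, the difference in Lrp2 did not pass: the log2 fold change of KO over MWT was −0.24 (adjusted p = 0.780), with 62.7 ± 33.1 and 78.7 ± 59.7 CPM. In the same comparison, added after the values were seen, Dab2 had a log2 fold change of 1.14 (adjusted p = 0.0511). Of the 5 genes 0 were called there, where 1070 of 13923 genes tested were called. The call of Lrp2 in Sox2-KO early ICMs therefore held against Ctrl and not against MWT embryos.

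In the Oct4 line the MWT early ICMs, whose stage and MEKi treatment are uncertain, varied widely. The 5 Oct4 MWT early ICMs had 4.62, 5.70, 7.80, 8.32 and 102.5 CPM of Lrp2, 4 of them under the lowest Oct4 Ctrl embryo (9.07 CPM) and 1 above the highest (48.6 CPM). The log2 fold change over Ctrl was 0.11 and, without the embryo at 102.5 CPM, −1.84, both given without a test. The same 5 embryos, in that order, had 14.8, 10.5, 26.7, 38.0 and 113 CPM of Dab2. The embryo high in Lrp2 was thus also the one high in Dab2. None of the other 4 genes was called there by edgeR or DESeq2 (0.373% of all genes tested were called by edgeR), Dab2 alone having an unadjusted p under 0.05.

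Oct4 MWT late ICMs held 0 to 41.4 CPM of Lrp2 (median 10.5) and 2.24 to 152 CPM of Dab2 (median 61.6). Neither passed the edgeR test against Ctrl: the log2 fold changes were −0.91 (adjusted p = 0.576) and −1.33 ± 0.41 (adjusted p = 0.0721). None of the 5 was called by edgeR (0.797% of all genes tested), Dab2 and Lrpap1 had an unadjusted p under 0.05, and DESeq2 called Dab2 (adjusted p = 0.0494). Against these embryos the Oct4-KO late ICMs kept the calls of Lrp2 (log2 fold change 4.48), Dab2 (3.60) and Lrpap1 (1.49). In Oct4 morulae none of the 5 was called between MWT and Ctrl (0.0646% of all genes tested), with an unadjusted p under 0.05 for Cubn alone and 0 calls by DESeq2.

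In Ctrl embryos, themselves maternal KO, Lrp2 and Cubn went in opposite directions from morula to early ICM. At this step age, culture with MEKi and removal of the trophectoderm change together. In the Sox2 line all 5 genes were called, against 31.9% of all genes tested. Lrp2 fell by 4.22 ± 0.44 on the log2 scale (adjusted p = 5.45e-14), Dab2 by 3.78 ± 0.38 and Lrpap1 by 1.41 ± 0.15. Cubn rose by 2.38 ± 0.50 (adjusted p = 3.06e-05), from 4.22 ± 2.37 to 23.2 ± 14.4 CPM. Amn fell by 1.47 ± 0.65 (adjusted p = 0.0483), a call that DESeq2 did not make (adjusted p = 0.0573).

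The Oct4 line showed the same signs. Dab2 fell by 2.16 ± 0.34 (adjusted p = 1.01e-07) and Amn by 2.59 ± 0.69 (adjusted p = 0.00113), while Cubn rose by 3.03 ± 0.66 (adjusted p = 7.52e-05). These were 3 of the 4 genes tested, against 29.0% of all genes tested. Lrpap1, at −0.40 (adjusted p = 0.0191), was under the fold minimum, and Lrp2 had a log2 fold change of −2.55, not tested because its Ctrl early ICMs took part in the choice.

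From early to late ICM Dab2 rose in both lines. The rise in the Oct4 line was 1.03 ± 0.35 (adjusted p = 0.0151), close to the fold minimum and below it with library totals (0.99) or with no filter on low counts (0.97), and that in the Sox2 line 1.53 ± 0.37 (adjusted p = 0.00506). Lrpap1 fell in the Oct4 line by 1.25 ± 0.15 (adjusted p = 7.46e-11) but had a log2 fold change of 0.00 in the Sox2 line. Calls were thus 2 of 4 genes tested in the Oct4 line (15.6% of all genes tested) and 1 of 5 in the Sox2 line (2.90%). Lrp2 did not pass in the Sox2 line, with a log2 fold change of 0.30 (adjusted p = 0.815). Amn had log2 fold changes of 1.73 ± 0.76 in the Oct4 line (adjusted p = 0.0705) and 1.80 ± 0.64 in the Sox2 line (adjusted p = 0.0698). Neither passed in edgeR, while DESeq2 called Amn in the Oct4 line (adjusted p = 0.0490) and not in the Sox2 line (adjusted p = 0.0545). The Oct4 values rest on Ctrl late embryo 1-9, which held 32 of the 38 UMIs of its group, and the median went the other way, from 1.18 CPM in the early to 0.70 CPM in the late ICMs.

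Lrp2 was next set against each partner within the same embryo, as log2 of the ratio of their UMIs after adding 0.5 to each. Such a ratio needs no scaling by depth and shows unequal change only. In all, 12 comparisons of KO with Ctrl were tested with the exact two-sided permutation test and adjusted together, in which the smallest possible p is 0.000155.

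In Oct4-KO late ICMs Lrp2 gained on every partner. The gain over Lrpap1 was 2.58 (−0.93 ± 0.55 in 8 KO against −3.51 ± 1.02 in 8 Ctrl embryos, exact permutation test, adjusted p = 0.00186), with all 8 KO embryos above the highest Ctrl embryo. Over Dab2 the gain was 1.35 (6 of 8 KO embryos above the highest Ctrl, adjusted p = 0.00311, exact), so Lrp2 rose more than its adaptor. Over Cubn it was 3.41 (adjusted p = 0.00719, exact) and over Amn 3.40 (adjusted p = 0.00311, exact).

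The Sox2-KO early ICMs gave gains of 2.92 over Cubn, 2.47 over Amn and 2.10 over Lrpap1 (adjusted p = 0.00311, 0.00311 and 0.00280, exact permutation tests). The gain over Dab2 was 0.84 (adjusted p = 0.165, exact), not beyond the spread between embryos. In Sox2-KO late ICMs the 4 differences lay between 0.05 (Dab2) and 1.29 (Amn), with exact adjusted p between 0.342 and 0.910. In Oct4-KO early ICMs, without a test, the gains were 4.44 over Cubn, 3.60 over Amn, 2.94 over Lrpap1 and 0.69 over Dab2. In both tested comparisons in which Lrp2 was called, the gain over Dab2 was the smallest of the 4.

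**Figure D4:**
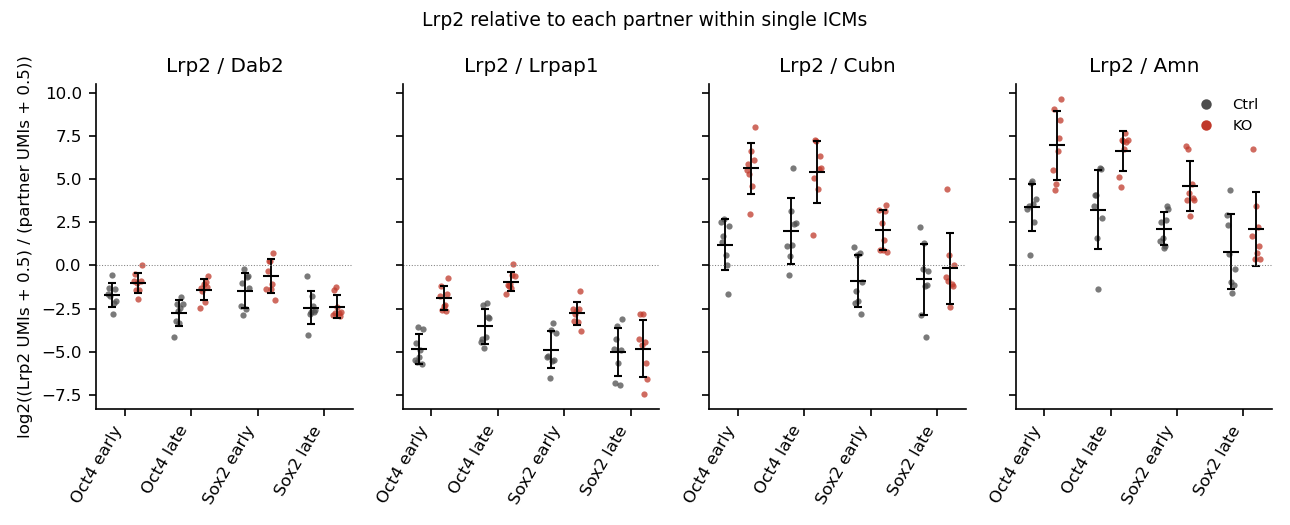
Log2 ratio of Lrp2 to each partner's UMIs (0.5 added to each) in single Ctrl and KO ICMs of 4 comparisons. Points are embryos and bars the mean ± SD. The KO points lie higher for Cubn, Amn and Lrpap1 in Oct4 early, Oct4 late and Sox2 early ICMs, less so for Dab2, and overlap in Sox2 late ICMs.

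Over the 16 group means of log2(CPM + 1), Dab2 was the partner whose levels were most like those of Lrp2 (Pearson r = 0.87, rank 23 of 9695 genes with at least 10 CPM in a group). Lrpap1 followed at 0.74 (rank 232), then Amn at 0.42 (rank 1870), and Cubn was at −0.52 (rank 7447). The 6 named genes with the highest r were Gcnt1 (0.93), a glycosyltransferase, Uevld (0.91), Clic3 (0.89), Nfil3 (0.89), a transcription factor, Pkp2 (0.89), a protein of desmosomes, and Nabp1 (0.88). Gcnt1, for example, was at 53.5 CPM in Oct4-KO early ICMs (Ctrl 11.7) and at 69.2 CPM in the late ones (Ctrl 17.2). These points share stage and line, and the values are a description over 16 groups. The Oct4-KO and Oct4 Ctrl early ICMs, whose values chose Lrp2, are among these groups, so the ranks are not independent of that choice.

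Among the partners' own orders, Dab2 was highest in Oct4-KO late ICMs (699 ± 212 CPM), a step larger than the spread above Sox2-KO morulae (449.7 ± 55.6). Lrpap1 was highest in Sox2-KO morulae (878 ± 74.1) and Cubn in Sox2 Ctrl early ICMs (23.2 ± 14.4). Amn was highest in Oct4-KO morulae (15.1 ± 11.7), and none of its neighbouring steps was larger than the spread.

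The summed trophectoderm markers were higher, without overlap of the groups, in both KO comparisons in which Lrp2 was called. The sum (18 genes) was 4087 to 7424 CPM in Oct4-KO late ICMs against 1219 to 2746 CPM in Ctrl, and 13 of 17 tested were called higher and 0 lower by edgeR (11 and 0 by DESeq2), where 9.25% of all genes tested were called higher. Examples are Gata3, a transcription factor of trophectoderm (421 against 64.2 CPM), and the keratin Krt8 (889.8 against 245 CPM). In Sox2-KO early ICMs the sum was 2278 to 4794 CPM against 1050 to 1979 CPM, with 7 of 17 called higher (1.57% of all genes tested) and 1, Tfap2c, lower (−1.03 ± 0.25).

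In Oct4-KO early ICMs the trophectoderm sum was 1935 to 3539 CPM against 1829 to 3152 CPM in Ctrl, with overlapping groups. Of 17 markers, 3 lay past the call thresholds upward and 2 downward, where 10.9% of all genes tested passed in either direction. The 3 were the transcription factors Gata3, Hand1 and Eomes, with log2 fold changes of 2.01 ± 0.33, 1.70 ± 0.44 and 1.35 ± 0.33. The 2 were Elf5 (−3.41 ± 1.13) and Plac1 (−1.40 ± 0.44). Tead4 had a log2 fold change of 0.995 ± 0.17, Tfap2c one of −0.67 ± 0.23, Krt8 one of 0.45 ± 0.44 and Cdx2, a defining factor of trophectoderm, one of 0.13 ± 0.38. Ascl2 and Esx1 were at 0 in the KO group and Ascl2 in Ctrl. In Sox2 MWT early ICMs the sum was 1684 ± 527 CPM against 1516 ± 277 CPM in Ctrl, while Lrp2 did not overlap. In Sox2-KO late ICMs, where Lrp2 was not called, it was 3106 ± 962 CPM against 2253 ± 1328 CPM, with 4 markers called higher and 1 lower (6.95% of all genes tested were called). In Oct4-KO morulae, where Lrp2 had a log2 fold change of −0.42, it was 2312 ± 263 CPM against 1764 ± 249.7 CPM.

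The sum of the primitive endoderm markers (18 genes) was 1019 ± 166 CPM in Oct4-KO late ICMs and 1602 ± 996 CPM in Ctrl, with 1 of 14 tested called higher (Gata6) and 10 lower, where 18.1% of all genes tested were called. It was 1272 ± 114 against 1255 ± 336 CPM in Sox2 early ICMs and 1066 ± 209 against 1319 ± 155 CPM in Oct4 early ICMs. There 6 of 14 tested markers lay past the call thresholds downward, Hnf4a (0.146 against 39.2 CPM), Sox17 and Pdgfra among them. Col4a2 and Srgn were the 2 past them upward, where 10.9% of all genes tested passed in either direction. The median log2 fold change over the list was −0.95. In Sox2 MWT early ICMs, where Lrp2 was called higher, the primitive endoderm sum was 1601 ± 245 CPM against 1255 ± 336 CPM in Ctrl. Of its defining genes, Foxa2 was at 0 in early ICMs of all genotypes in both lines, while Gata6 was at 330 and Sox17 at 52.4 CPM in the Sox2 Ctrl early ICMs. The epiblast list (12 genes, all tested, Pou5f1 and Sox2 among them) had lower sums in the KO ICMs, though not every member fell. Its sum was 945 ± 289 against 3982 ± 606 CPM in Oct4 late ICMs (11 called lower, against 18.1% of all genes called in either direction), 1913 ± 182 against 2945 ± 883 CPM in Sox2 early ICMs (7 called lower, against 3.27%) and 2009 ± 297 against 3994 ± 591 CPM in Sox2 late ICMs (7 called lower, against 6.95%). In Oct4 early ICMs it was 1752 ± 211 against 3201 ± 514 CPM (10 past the call thresholds downward, against 10.9% of all genes tested in either direction). Nanog, a factor of naive epiblast, had log2 fold changes of 0.30 in Oct4 early, 0.19 in Sox2 early and 0.07 in Sox2 late ICMs, but fell by 1.19 ± 0.24 in Oct4 late ICMs (adjusted p = 2.47e-05). The part of these cell types in the Lrp2 and Dab2 values was not tested beyond these sums.

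**Figure D5:**
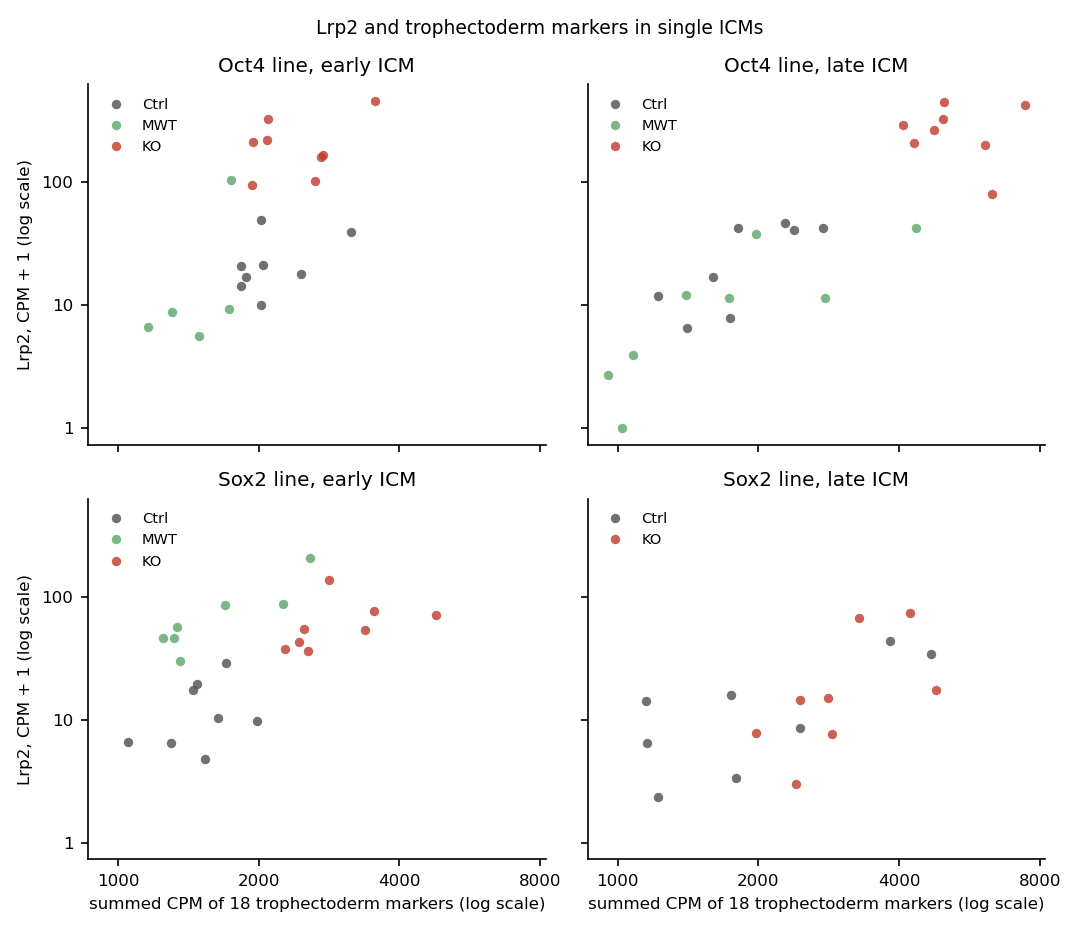
Lrp2 (CPM + 1, log axis) against the summed CPM of 18 trophectoderm markers (log axis) in single ICMs, by line, stage and genotype. Each point is 1 embryo. Oct4-KO late ICMs and Sox2-KO early ICMs lie higher than their Ctrl on both axes. Oct4-KO early ICMs, the group in which Lrp2 was selected, are drawn as a description.

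Other genes of receptor uptake were read from 4 lists. They were drawn up by role, with earlier results of these data known. In Oct4-KO late ICMs 4 of 16 tested genes of endosomes and lysosomes were called higher and 1 lower, with a median log2 fold change of 0.55 against −0.01 over all genes tested. Over all genes tested 18.1% were called and 9.25% were called higher, the shares against which this and the next 3 counts stand. The higher ones were 3 lysosomal proteases, Ctsl (1257 against 495 CPM, log2 fold change 1.46 ± 0.19, adjusted p = 9.36e-10), Ctsb and Ctsd, and the endosomal chloride transporter Clcn5 (105 against 31.0 CPM, 1.87 ± 0.29). Rab4a, a GTPase of fast recycling, fell from 24.3 to 8.29 CPM (−1.46 ± 0.41, adjusted p = 0.00339).

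Of 20 adaptor and coat genes, 2 were called higher and 1 lower in Oct4-KO late ICMs, 15% of the list against 18.1% of all genes tested, so this list was near the background. Ap2a2, an α subunit of the AP-2 clathrin adaptor, rose from 172 to 513 CPM (log2 fold change 1.68 ± 0.14, adjusted p = 8.23e-19). Fcho1, which starts coated pits, fell from 17.1 to 2.61 CPM (−2.53 ± 0.50). The list's median was 0.31.

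Among the other LDL receptor family members in Oct4-KO late ICMs, 1 of 10 tested was called higher and 2 lower (18.1% of all genes tested were called), with a median of 0.38. Lrp4 had 44 against 13 UMIs (log2 fold change 1.68 ± 0.59, adjusted p = 0.0215), a call DESeq2 did not make. Sorl1, a sorting receptor, had 2 UMIs in KO and 51 in Ctrl, and Lrp12 fell by 1.52 ± 0.58 (adjusted p = 0.0337).

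Among ligands and cargo, 3 of 8 tested genes were called higher and 2 lower (18.1% of all genes tested were called). Apoa1, the main protein of high density lipoprotein, was at 46.6 ± 39.6 CPM in KO and 6.38 ± 11.7 CPM in Ctrl (log2 fold change 2.93 ± 0.61, adjusted p = 6.33e-05). Folr1, a folate receptor taken up with megalin, rose from 91.6 to 295 CPM and Lgals3 from 20.8 to 67.4 CPM. Bmp4, a signalling ligand, had 2 UMIs in KO and 174 in Ctrl, and Clu fell by 1.89 ± 0.68 (adjusted p = 0.0231). Folr1, Lgals3, Ctsb and Ctsd lay outside the rule for naming genes and were named after their values were seen.

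In Oct4-KO early ICMs Ctsl and Clcn5 already had log2 fold changes of 1.29 ± 0.19 and 1.02 ± 0.27. Apoe had one of −1.70 ± 0.29 and Rab4a one of −1.43 ± 0.54. Bmp4 had 0 UMIs in KO and 51 in Ctrl, 17.4-fold lower when KO is set to a floor of 3 UMIs over the group. The lists' medians lay between −0.51 (LDL receptor family) and 0.22 (endosomes and lysosomes), against 0.01 over all genes tested.

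In Sox2-KO ICMs the 4 lists gave calls near the background. Ctsl rose in early ICMs from 437 to 837 CPM (log2 fold change 1.01 ± 0.19, adjusted p = 9.23e-05) and in late ICMs from 567 to 1119 CPM (1.08 ± 0.19, adjusted p = 9.21e-06). Bmp4 fell by 2.30 ± 0.47 in early ICMs and by 1.78 ± 0.49 in late ICMs. These were the 2 called genes of the 4 lists in early ICMs (54 tested), where 3.27% of all genes tested were called. In late ICMs Sorl1, Lrp12 and Rab4a also fell, by 1.76 ± 0.50, 1.48 ± 0.52 and 1.46 ± 0.42, which made 5 called genes of 54, where 6.95% of all genes tested were called.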

How the data were processed

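RNA was measured by 3′-end-enriched sequencing of 123 single embryos with UMIs. The authors extracted UMIs with UMI-tools, trimmed with cutadapt, aligned to mm10 with TopHat2 and GENCODE transcripts, assigned reads with featureCounts and counted unique transcripts with TRUmiCount. The deposited counts are whole numbers of UMIs per gene, without normalization. A second deposited table of rlog values was not used.

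The 5 members and all gene lists were chosen with earlier results of these data known. Genes seen in a share of 0.5 or more of the embryos at any stage were fitted by group with edgeR 4.0.16 (TMM, quasi-likelihood test) in R 4.3.3: 14053 genes over 96 Ctrl and KO embryos, and 13923 over all 123 for MWT. A gene was called at a Benjamini-Hochberg adjusted p under 0.05, over all genes tested, and a log2 fold change of 1 or more in size. SE is the fold change divided by the root of the F statistic. Named from each pathway list were up to 3 called genes with the largest change per ICM comparison, and 6 genes most like Lrp2, predicted genes aside, and 2 list genes are not reported here by name. Intervals of UMI ratios (95%, exact Poisson) cover counting error only. Nothing in the labels says whether embryos shared a litter, so p-values measure the spread between these embryos. Alternatives were DESeq2 1.42.0, other scalings, filters, embryos and pseudocounts. The fits were tested on simulated counts.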

Additional observations from a re-analysis of the deposited data

Results flagged for a closer look

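Each gene's highest and lowest embryo was compared with the rest of its group by the gap to its nearest neighbour, divided by the range of the group (Dixon's ratio at its 95% limit). Of 79 groups checked, 17 had a highest embryo that stood apart, and no lowest embryo did. Most of these 17 were low counts of Amn and Cubn. The limit would pass about 5% of groups by chance only if values were normally distributed. Low counts have room to spread upward but little downward. The 17 groups therefore cannot be read as an excess over chance, and the lack of low embryos carries no weight. The embryos below are listed as a description. The causes were not tested.

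Lrp2 stood apart in 4 embryos: Oct4-KO morula 7 (189 CPM, next 108), Oct4 MWT early ICM 1 (102.5, next 8.32), Sox2 MWT early ICM 15 (206, next 85.7) and Sox2-KO early ICM 17 (136, next 76.1). Dab2 stood apart in 2 of these same embryos, Oct4 MWT early ICM 1 (113 CPM, next 38.0) and Sox2 MWT early ICM 15 (164 CPM, next 42.9). Sox2 MWT early ICM 15 was also the highest for Cubn (31.0 CPM, next 12.2), so in that embryo both receptors and the adaptor were high together.

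Cubn stood apart in Oct4-KO early ICM 10 (11.4 CPM, next 4.86) and in Oct4-KO late ICM 1-2 (23.4 CPM, next 8.84). Amn stood apart in 8 groups, all of ICMs. Its highest embryos were Sox2 Ctrl late ICM 2-6 (49.7 CPM), Oct4 Ctrl late ICM 1-9 (42.9 CPM), Sox2 MWT early ICM 10 (24.4 CPM) and Oct4 MWT late ICM 20 (19.6 CPM). Lower ones were Sox2 Ctrl early ICM 7 (13.6 CPM), Oct4 Ctrl early ICM 3 (8.51 CPM), Oct4-KO late ICM 1-5 (8.39 CPM) and Oct4 MWT early ICM 8 (4.46 CPM). Sox2 Ctrl late ICM 2-6, Oct4 Ctrl late ICM 1-9 and Sox2 MWT early ICM 10 also had the highest primitive endoderm marker sum of their groups (4298, 3736 and 2056 CPM), while the embryos of the other 5 groups ranked between 3rd and 7th, so in 3 of the 8 groups the embryo highest in Amn was also highest in these markers.

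The effects of Oct4 and Sox2 loss differed in late ICMs by the interaction test for 3 genes: Lrp2 by 2.79, Dab2 by 2.10 and Lrpap1 by 0.62 on the log2 scale, the last under the fold minimum.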

How the results depend on the processing

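Of 952 values recomputed under other settings, 885 kept their direction and call. The calls of Lrp2 and Dab2 in Oct4-KO late ICMs held in every one of their settings, with log2 fold changes of 3.43 to 3.747 and 2.16 to 2.43 when each embryo was left out in turn. Amn and Cubn rest on few UMIs and gave 31 of the 39 reversals. The causes were not tested.

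Leaving out 1 embryo at a time moved Cubn from −0.65 to 0.38 and Amn from −1.99 to 0.91 in Oct4 late ICMs, Amn from −0.53 to 0.94 in Sox2 early and from −1.79 to −0.58 in Sox2 late ICMs, and Cubn from −0.19 to 0.40 in Sox2 late ICMs. Over the 5 Oct4 MWT early ICMs it moved Lrp2 from −1.84 to 0.40 and Cubn from −0.14 to 0.64 (log2 fold change over Ctrl). Without Sox2 MWT embryo 15, chosen after seeing the data, Dab2 was at −0.025.

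Embryo numbers occur in both Ctrl and KO, but embryos of the same number did not deviate together (r from −0.08 to 0.23), so the numbers were not treated as pairs. With the replicate block and the few embryos that share a number, Dab2 in Sox2 early ICMs was 1.496 (adjusted p = 0.151), against 1.62 without the block in the same embryos, and 1 gene was called in both. Amn was 0.52 and 0.59 there and −0.62 and −0.71 in Oct4 morulae. In Sox2 late ICMs Lrp2 was −0.40 with and −0.57 without the block, and without it Cubn was −0.055 and Dab2 −0.15. Cubn in Oct4 early ICMs was 0.0035 and −0.081. The block changed no other call. These fits called 29 genes in all in Oct4 morulae, 280 in Oct4 early, 229 in Sox2 early and 420 in Sox2 late ICMs, against 32, 291, 267 and 451 without the block in the same embryos and 113, 1529, 459 and 977 in all embryos. Oct4 late ICMs share 1 number and Sox2 morulae 0, so no block was fitted.

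Within set 2 of the late ICMs, Oct4 gave 0.63 for Cubn and 0.91 for Lrpap1 (below the minimum), and Sox2 gave −0.85 for Lrp2, −0.70 for Cubn, −0.53 for Dab2 and −2.78 for Amn, the 1 gene called. Within set 1 Amn was 0.92 in the Sox2 line.

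Without a fold minimum 1 gene, Lrpap1 (0.53), was called in Sox2 late ICMs. From Ctrl morula to early ICM in the Sox2 line, Amn lost its call with DESeq2 (−1.51), its size factors in edgeR (−1.44), library totals (−1.40) and no filter (−1.46). From early to late ICM in the Oct4 line, Dab2 fell under the minimum with library totals (0.99) and no filter (0.97), leaving 1 call each, and DESeq2 called Amn (1.80). DESeq2 called 1 gene, Dab2 (−1.32), in Oct4 MWT late ICMs. Amn was −0.0009 in the late interaction with DESeq2 size factors and −0.0042 in Sox2 morulae at equal depth, and Cubn −0.021 in Sox2 late ICMs with library totals.

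With MWT in place of Ctrl, chosen after seeing the data, Sox2 early ICMs gave −0.24 for Lrp2, 0.40 for Cubn, −0.11 for Lrpap1 and 1.14 for Dab2, with 0 genes called. Cubn was −5.28 in Oct4 morulae, the 1 gene called, and 0.64 in Oct4 late ICMs, and Dab2 3.45 in Oct4 early ICMs. Counts over all genes rose from 113 to 297 in Oct4 morulae and from 459 to 1070 in Sox2 early ICMs.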
